A study of Mus musculus with 189 samples.

Results

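Within each of 2 mouse embryos at the 16-cell stage, the 4 blastomere samples that leaned most towards the inner cell mass (ICM) were compared with the 4 that leaned most towards the trophectoderm (TE). The blastomere is the single cell of a cleaving embryo. The 16 samples were selected on their own measured values, by a lineage score, from the 26 blastomere samples of the 16-cell stage, and the whole series holds 189 samples. The embryos, labelled mor.4 and mor.5, came from C57BL/6 x DBA/2 F1 females mated to C57BL6 males, were not treated, and grew in KSOMaa medium at low oxygen, as all embryos of the series did. Both sets come from the same embryos, so they share genotype and culture. Single cells were placed directly in the reverse transcription mix, and 192 genes were measured in each by quantitative PCR on microfluidic chips. Of these assays, 156 passed the quality control of the study.

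The ICM forms the embryo proper and the primitive endoderm, and the TE forms the fetal part of the placenta. Which way a cell goes depends on its position and polarity. In outer cells Hippo signalling is low, YAP acts with TEAD4, and CDX2 and GATA3 drive the TE programme, while SOX2 marks inner cells and OCT4 (encoded by Pou5f1) is still shared by all cells. At the 16-cell stage the first inner cells have just formed, so the difference between the lineages is at its beginning.

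Each value is 30 minus the cycle threshold (Ct), minus the mean of the same quantity for the control genes Hnrnpr, Ssu72 and Ube2e1. It is on a log2 scale, where 1 unit is a 2-fold difference if the PCR doubles at each cycle. An undetected gene has a Ct of 30 and so a value between −16.4 and −12.1, set by the control genes of that sample. Means and differences that include such samples depend on this limit and are not fold changes, and the number of samples with a detected transcript is given for the genes the results turn on.

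The score was the mean of 8 genes of the ICM (Esrrb, Klf2, Klf4, Pdgfra, Pecam1, Pou5f1, Sox2 and Trim28) minus the mean of 8 genes of the TE (Cdx2, Dppa1, Gata3, Id2, Krt8, Lats2, Tead4 and Tspan8). In embryo mor.4 the ICM-leaning samples were blastomeres 4, 11, 8 and 6, with scores of 4.97, 4.96, 4.32 and 3.44. The TE-leaning samples of that embryo were blastomeres 2, 1, 7 and 10, with −3.63, −4.13, −4.74 and −5.86. In embryo mor.5 the ICM-leaning samples were blastomeres 6, 7, 4 and 8, with 8.84, 6.68, 6.45 and 2.61, and the TE-leaning ones were the 2-cell sample 15-16 and blastomeres 9, 10 and 5, with −4.22, −4.40, −5.24 and −7.12. Values of single samples are given in this order throughout. All other members of the sets were single cells. The samples next to the limits scored 1.59 and −3.13 in embryo mor.4 and −0.57 and −2.64 in embryo mor.5. On the TE-leaning side the last sample inside stood 0.50 below the next one in embryo mor.4 and 1.59 below it in embryo mor.5, and on the ICM-leaning side 1.85 and 3.18 above it.

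**Figure D1:**
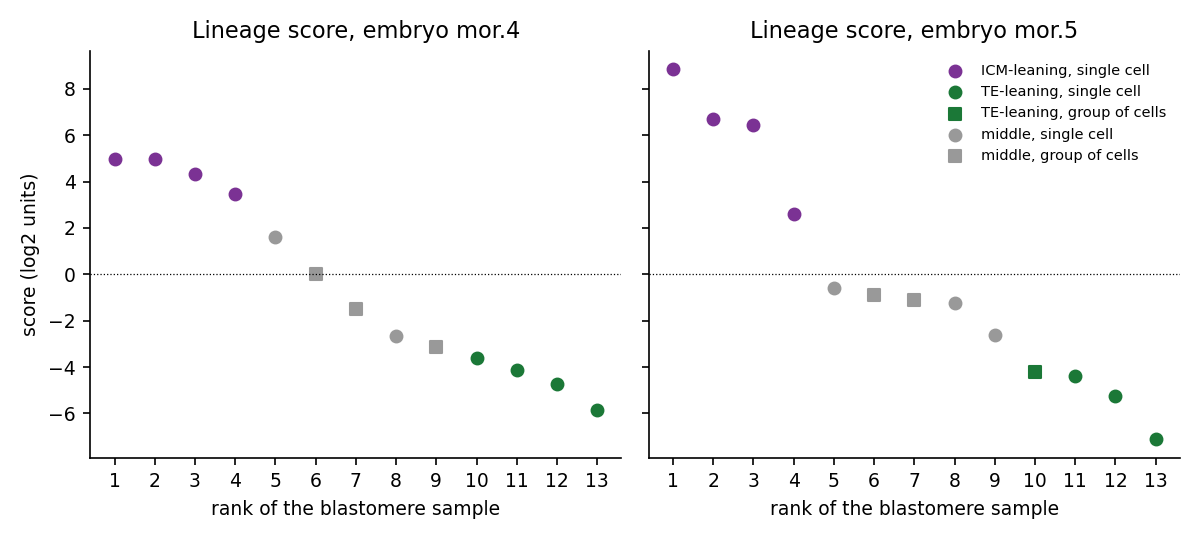
Lineage score (log2 units) of the 13 blastomere samples of each 16-cell embryo, in order of rank; circles are single cells and squares are groups of cells. The 4 ICM-leaning samples lie between 2.61 and 8.84, the 4 TE-leaning ones between −7.12 and −3.63, and 10 samples lie in between.

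The labels number the blastomeres of these 16-cell embryos up to 20 in mor.4 and 19 in mor.5, and the samples hold 18 and 17 cells, so both embryos had passed 16 cells by these labels. Among the 26 samples, 20 were single cells. The mean Ct of the control genes ran from 13.6 to 17.9, and 11 to 44 of the 156 genes were not detected in a sample, with a median of 18. The sample with 44, blastomere 11 of embryo mor.5, stood apart but was in neither set. Chip or run of the samples was not given in the sources used here.

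The genes of the score were chosen by the study from correlations over these and the 32-cell samples, they differ between the sets by construction, and their values are given as a description only. Sox2, a pluripotency factor of inner cells, was detected in all 4 ICM-leaning samples of embryo mor.4, at −0.95, −0.38, −2.60 and −1.92. Embryo mor.5 held it in blastomeres 6 and 4, at −1.14 and −0.61, and not in the other ICM-leaning blastomeres 7 and 8. It was detected in 0 of 8 TE-leaning samples, and in 2 of the 10 middle samples, the groups of cells 13-14 and 15-17 of embryo mor.4. These read −4.29 and −8.96, below every detected ICM-leaning value, but are averages over 2 and 3 cells. No single middle cell held it.

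Klf4, a Krüppel-like pluripotency factor, was graded. It read −0.68, −0.61, −1.43 and −1.39 in the ICM-leaning and −2.06, −1.30, −5.77 and −5.23 in the TE-leaning samples of embryo mor.4, where the sets overlapped. It read 0.22, 0.70, −0.79 and −0.31 against −1.68, −2.06, −1.81 and −4.32 in embryo mor.5, without overlap. Pdgfra, a receptor of the later primitive endoderm, was detected in 8 of 8 ICM-leaning samples, in 2 of 4 TE-leaning samples of embryo mor.4 and in 0 of 4 of embryo mor.5. Esrrb, an orphan nuclear receptor, and Klf2, another Krüppel-like factor, were on average 3.33 and 4.23 higher in the ICM-leaning sets, Klf2 with detection in 8 of 8 against 7 of 8 samples. Pecam1, an adhesion molecule, was 5.599 higher, with detection in 8 of 8 against 6 of 8 samples. Pou5f1 and Trim28, a corepressor, stood only 0.46 higher each, and their sets overlapped in both embryos. Pou5f1 ran from 4.35 to 5.36 over the 8 ICM-leaning samples and from 4.00 to 4.73 over the 8 TE-leaning ones.

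Of the TE genes, Cdx2, a homeobox factor of the TE, was detected in all 16 samples. It read −1.05, −5.70, −1.65 and −2.17 in the ICM-leaning samples of embryo mor.4 against 1.00, 1.62, 0.85 and 0.08 in the TE-leaning ones. The values of embryo mor.5 were −1.92, −0.28, −1.72 and −1.69 against 1.28, 1.02, 1.16 and 1.73. Cdx2 separated the sets in both embryos, and so did Gata3, a zinc finger factor acting beside it. Gata3 read −0.71, −1.90, −1.80 and −1.09 against 2.41, 1.91, 2.63 and 1.5 in embryo mor.4, and −4.75, −2.13, −2.26 and −1.91 against 1.88, 2.48, 2.23 and 3.03 in embryo mor.5. Dppa1 was the third TE gene without overlap in both embryos, and was detected in 2 of 8 ICM-leaning and 8 of 8 TE-leaning samples. Id2, an inhibitor of DNA binding, behaved differently in the embryos. It was detected in all 4 ICM-leaning samples of embryo mor.4, with a mean of −1.45 ± 2.08 (SD, n = 4), and in none of the 4 of embryo mor.5. Krt8, a keratin of epithelia, Lats2, a kinase of the Hippo pathway, and Tead4 were on average 2.13, 1.74 and 0.95 lower in the ICM-leaning sets by their group means, each with overlap in 1 embryo. Tspan8, a tetraspanin, was detected in 3 of 8 ICM-leaning and 8 of 8 TE-leaning samples.

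**Figure D2:**
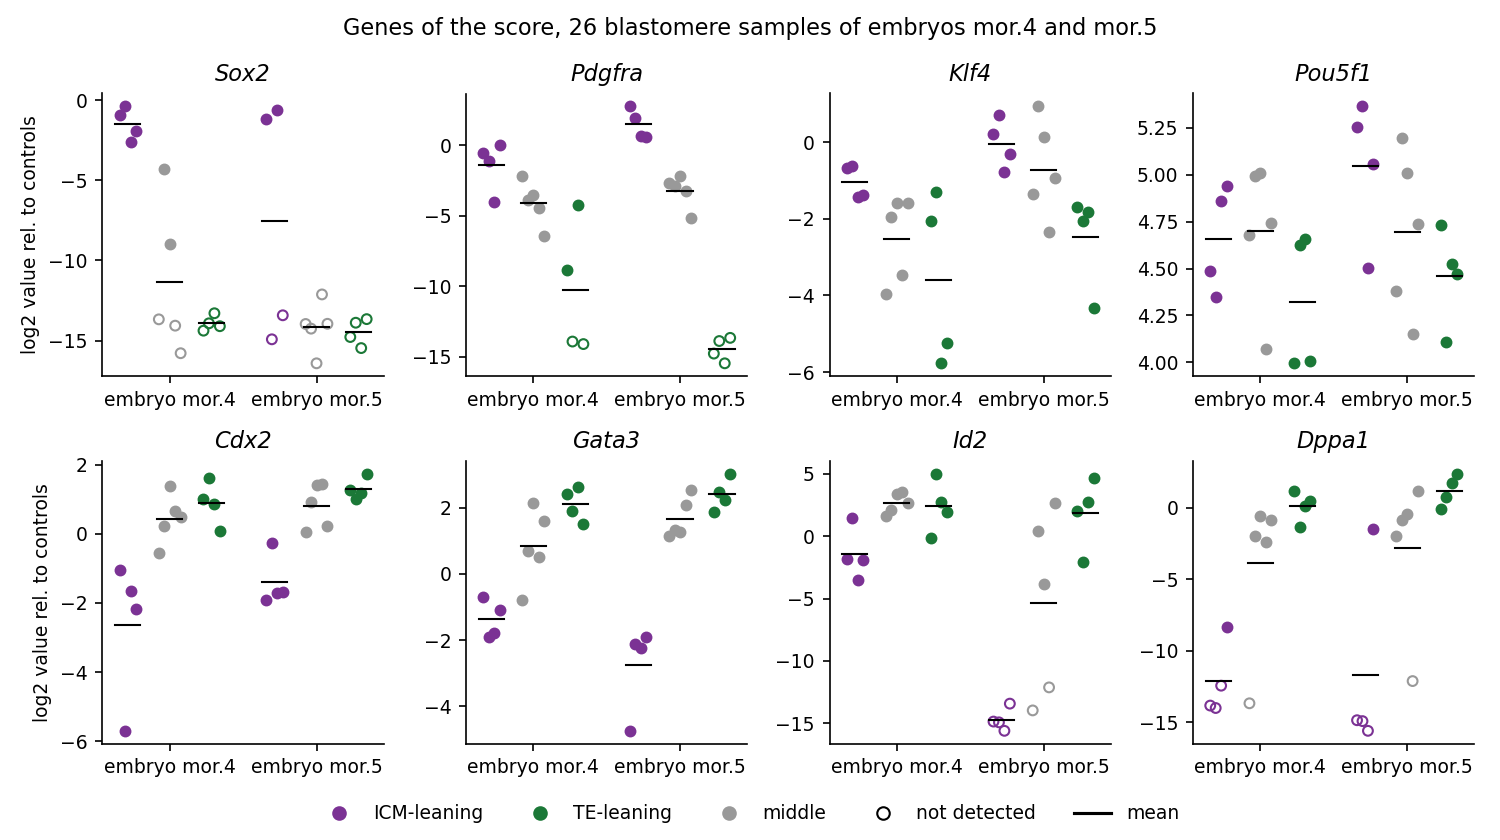
Values of 8 genes of the score (log2 relative to the control genes) in the 26 blastomere samples, by embryo and set; open circles are samples in which the gene was not detected and lines are means. Sox2 and Dppa1 are undetected in samples of both embryos and Id2 in samples of embryo mor.5, whereas Klf4, Pou5f1, Cdx2 and Gata3 are detected in every sample.

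The amount of template was compared through the control genes, which averaged a Ct of 16.2, 16.0, 17.6 and 16.5 in the ICM-leaning and 15.6, 16.1, 16.7 and 15.9 in the TE-leaning samples of embryo mor.4. For embryo mor.5 the averages were 15.1, 15.1, 14.4 and 16.6 against 15.22, 16.1, 14.5 and 16.3. The sets overlapped in both embryos, and their difference of 0.119 cycles did not pass a two-sided exact permutation test within embryos (p = 0.744). The number of undetected genes differed over these 16 samples. Of the 137 genes outside the score and the controls, on average 15 and 12.8 were not detected in the ICM-leaning sets of mor.4 and mor.5, against 18.5 and 19.25 in the TE-leaning sets (two-sided exact permutation within embryos, p = 0.0135, adjusted p = 0.0269 over 4 measures). Over all 156 genes the ICM-leaning samples lacked 5 genes fewer on average. That count includes the 16 genes of the score, which chose the sets, so it is a description only. The part of this difference in the results for genes that were absent from some samples was not tested.

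The 137 genes outside the score asked which other transcripts differ along with it. With the embryo as the unit, that is with 1 average per set and embryo, 0 of 137 genes passed (0%; limma with embryo as a block, adjusted p under 0.05), and 11 had an unadjusted p under 0.05. The smallest adjusted p was 0.283, for Prdm14 and Krt19, and with 2 embryos 1 residual degree of freedom is left for each gene. Without blastomere 10 of embryo mor.5 this fit called 9 genes, 8 higher and 1 lower in the ICM-leaning sets. With every blastomere sample as a unit and embryo as a block, 8 of 137 genes passed (5.84%), and 28 had an unadjusted p under 0.05. All 8 were higher in the ICM-leaning samples: Prdm14, Satb1, Tet1, Hand1, Smyd5, Ezh1, Setd4 and Scmh1. The second fit describes these 16 samples of 2 embryos and not the spread between embryos. An exact permutation test of each gene within embryos, with a smallest possible p of 0.000408, called 0 genes (33 at an unadjusted p under 0.05, smallest adjusted p 0.0559). After adjustment over 137 genes, 1 gene alone could not pass even at that smallest p, so this count says little.

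The 8 calls did not rest equally on all samples. Prdm14 and Satb1 passed whichever of the 16 samples was left out, Hand1 in 9 of the 16 fits, Tet1 in 8, Ezh1 and Smyd5 in 7 each, Scmh1 in 6 and Setd4 in 5. The count fell to 2 or 3 without blastomere 10, 2, 4 or 6 of embryo mor.4 or without blastomere 5, 6, 7, 4 or the 2-cell sample 15-16 of embryo mor.5. With embryo mor.4 alone 0 genes passed (10 at an unadjusted p under 0.05), and with embryo mor.5 alone 4 did, namely Prdm14, Hand1, Satb1 and Smyd5.

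The differences were not centred on 0. Over the 137 genes the median difference was 0.40 in favour of the ICM-leaning sets, 0.14 in embryo mor.4 and 0.60 in embryo mor.5, and it moved between 0.17 and 0.65 with other choices of control genes. In both embryos 67 genes were higher in the ICM-leaning set (48.9%) and 21 in the TE-leaning set (15.3%), while 49 differed in sign. For the 98 genes detected in all 16 samples the median was 0.28 and the largest size of a difference was 1.85 (Tet1), and 6 of the 8 genes called with samples as units were among them. For the other 39 genes the median was 1.76, with 0.49 in embryo mor.4 and 1.91 in embryo mor.5. A gene undetected in every chosen sample of embryo mor.4 also differs by 0.49 there, through the control genes that set its value. Sox17 and Dazl were such genes, and they count among the 67 genes higher in both embryos.

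No gene outside the score separated the sets in both embryos (0 of 137, 0%). In embryo mor.5, 20 genes lay higher in every ICM-leaning than in every TE-leaning sample (14.6%), and 0 lay lower. In embryo mor.4 only ZP3, a maternal component of the zona pellucida, lay higher in every ICM-leaning sample (0.73%), and only Whsc1, an H3K36 methyltransferase, lay lower. Both were named after their values were seen.

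**Figure D3:**
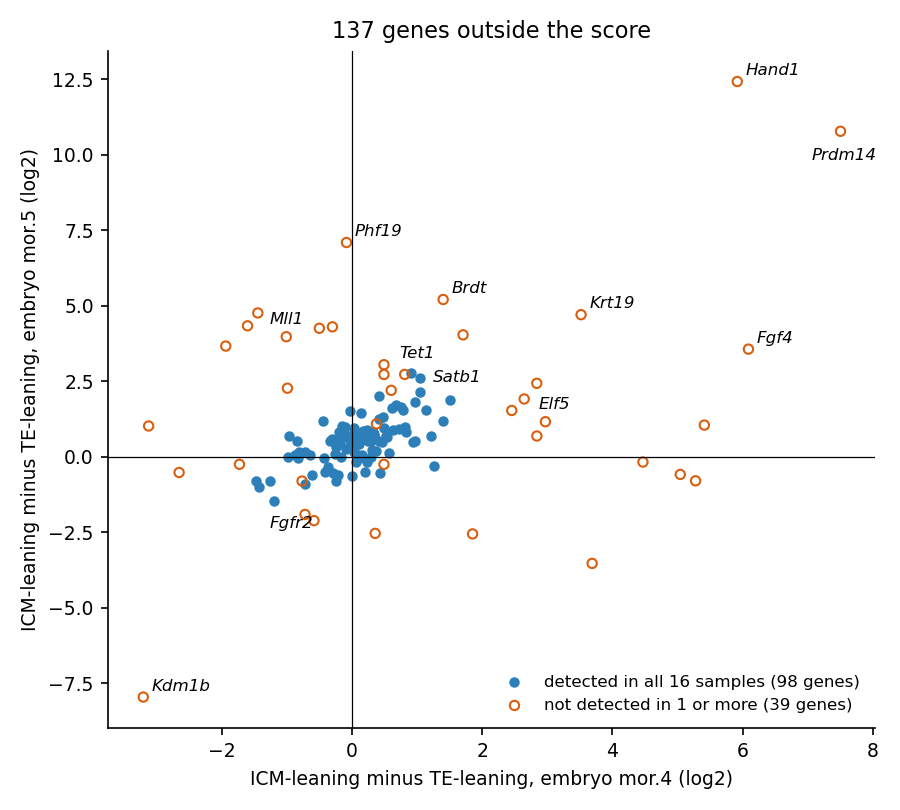
Difference between the means of the ICM-leaning and the TE-leaning set (log2) of 137 genes in embryo mor.4 (horizontal) and embryo mor.5 (vertical). Genes detected in all 16 samples, filled, lie within 1.85 of 0 on average over the embryos, and the genes far from the origin, open, were not detected in some samples; Prdm14 and Hand1 are far out in both embryos and Kdm1b is alone at the lower left.

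Besides Trim28, which is part of the score, the study placed 4 chromatin genes in its core ICM set from correlations over these and the 32-cell samples, so their direction here is not independent of that choice. Prdm14, a PR-domain regulator of pluripotency that represses Dnmt3b and other genes, had the clearest pattern. It was detected in blastomeres 4, 8 and 6 of embryo mor.4, at −3.32, −3.98 and −4.40, but not in blastomere 11. All 4 ICM-leaning samples of embryo mor.5 held it, at −4.64, −1.60, −3.85 and −4.61. It was detected in 0 of 8 TE-leaning samples and in 1 of the 10 middle samples, the 2-cell sample 13-14 of embryo mor.5. The difference was 7.50 in embryo mor.4 and 10.77 in embryo mor.5. Its mean was 9.14 ± 1.02 (SE, 2 embryos), with an adjusted p of 0.283 in limma with embryos as units and 0.000661 with samples as units. Here and below the SE of a difference is the moderated one of limma, which draws on the spread of all genes fitted. It is not the spread between the embryos of that gene alone.

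Tet1, which oxidizes 5-methylcytosine, was detected in all 16 samples. It read −3.50, −3.11, −2.67 and −3.55 against −5.10, −2.80, −4.22 and −4.36 in embryo mor.4, where 1 TE-leaning sample lay among the ICM-leaning ones. In embryo mor.5 it read −1.41, −2.06, −2.42 and −2.42 against −4.10, −6.30, −5.23 and −3.82, without overlap. The difference of 1.85 ± 0.46 (SE, 8 samples a set) passed with samples as units (limma, adjusted p = 0.0365) and not with embryos as units (adjusted p = 0.455).

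Scmh1, a Polycomb protein with MBT domains, differed by 1.502 in embryo mor.4 and by 1.89 in embryo mor.5. It ran from −2.79 to −1.18 over the ICM-leaning samples and from −6.01 to −2.01 over the TE-leaning ones, so the sets overlapped (limma with samples as units, adjusted p = 0.0483). Its difference, 1.70 over both embryos, was 0.464 with 5 and 0.475 with 6 samples a set. Ezh1, a methyltransferase for H3K27 and paralog of Ezh2, differed by 0.62 and 1.62. It was above 0 in 6 of the 8 ICM-leaning samples and below 0 in all 8 TE-leaning ones (limma with samples as units, adjusted p = 0.0390). All 4 genes of this list were higher in the ICM-leaning set of both embryos, beside 48.9% of all 137. Their median difference was 1.77 beside 0.40 over the 137 genes. None of the 4 passed with embryos as units.

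Satb1, Smyd5, Setd4 and Hand1 were the other genes called with samples as units, and none of them passed with embryos as units. Satb1, an organizer of chromatin that binds AT-rich sequence, read 1.83, 0.74, 1.54 and 1.38 against −0.68, 0.41, 0.90 and 0.67 in embryo mor.4. In embryo mor.5 it read 2.19, 2.42, 1.82 and 3.03 against −0.42, 0.60, −0.50 and −0.69. The sets overlapped in the first through blastomere 11 and did not in the second, and the difference was 1.83 ± 0.35 (SE, 8 samples a set; limma with samples as units, adjusted p = 0.00764). Smyd5, of the SMYD methyltransferase family, differed by 0.79 and 1.56 (adjusted p = 0.0365 in the same limma fit). The study had counted Smyd5 among genes correlated with the ICM set. Setd4, a SET-domain methyltransferase, differed by 1.04 and 2.14 (adjusted p = 0.0395 in the same limma fit). Satb1 and Setd4 were named after their values were seen.

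Among pluripotency and epiblast genes, 1 of 6, Prdm14, passed with samples as units, beside 5.84% of all 137. The list had a median difference of 0.56, and 3 of its 6 genes, Prdm14, Fgf4 and Dppa3, had higher means in the ICM-leaning set of both embryos, beside 48.9% of all 137. Fgf4, the growth factor that epiblast precursors send to primitive endoderm precursors, was detected in 5 of 8 ICM-leaning and 2 of 8 TE-leaning samples (difference 4.83 ± 0.83 (SE, 2 embryos); limma, adjusted p = 0.324). Nanog, which directs the epiblast, read 1.62, 0.55, 1.80 and 1.30 against 0.13, 2.27, 1.69 and 1.29 in embryo mor.4, a difference of −0.03. In embryo mor.5 it read 2.39, 2.13, 2.01 and 0.80 against 1.54, −4.13, 2.36 and 1.52, where a single TE-leaning sample was far below the others. Nanog thus overlapped widely between the sets (limma, adjusted p = 0.644). Tbx3 and Zfp42, also pluripotency genes, differed by −0.16 and 0.08, and their sign turned between the embryos.

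Genes of the primitive endoderm and the FGF pathway did not pass in either fit. Gata6, its early factor, was detected in all 16 samples, between 1.56 and 3.73, and its sets overlapped in both embryos. Sox17, which follows later, was detected in 1 of the 16 samples, blastomere 6 of embryo mor.5, at −1.67. Fgfr2, a receptor for FGF4, was lower in the ICM-leaning set by its means in both embryos, by −1.21 and −1.47, with overlap in both (limma with samples as units, adjusted p = 0.0830). The 3 genes of the primitive endoderm had a median difference of 0.37. Of the 5 FGF and MAP kinase genes, 4 were higher by their means in the ICM-leaning set of both embryos and 1, Fgfr2, was lower. These counts stand beside 48.9% and 15.3% of all 137, and the median of the list was 0.79.

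The 3 genes of the TE outside the score, Hand1, Krt19 and Elf5, all had higher means in the ICM-leaning set of both embryos, beside 48.9% of all 137. All 3 had an unadjusted p under 0.05 with embryos as units (limma), as 11 of all 137 did, and none passed after adjustment. Hand1, a basic helix-loop-helix factor of trophoblast giant cells, was detected in 3 of 4 ICM-leaning samples of embryo mor.4, at −0.23, −0.78 and −0.09, and not in blastomere 11. In the TE-leaning samples of that embryo it was detected in 2 of 4, at −5.87 and −5.23. In embryo mor.5 it read 0.40, 1.72, −0.62 and −1.09 in the ICM-leaning samples and was detected in 1 of the TE-leaning ones, at −6.26. Every detected ICM-leaning value lay above every TE-leaning value. The difference was 9.17 ± 2.31 (SE, 8 samples a set; limma with samples as units, adjusted p = 0.0365), and 0.364 was the adjusted p of limma with embryos as units.

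Krt19, a keratin, was detected in 5 of 8 ICM-leaning samples, between −5.17 and −3.65, and in 1 of 8 TE-leaning ones, at −1.88, the highest value of all 16. Elf5, an ETS factor of the TE, was detected in 3 of 8 against 1 of 8, and again its highest value, −2.80, was in a TE-leaning sample. With samples as units Krt19 and Elf5 did not pass (limma, adjusted p = 0.303 and 0.516). The list had a median difference of 4.11. Blastomere 11 of embryo mor.4, with the second highest score of its embryo, lacked Prdm14, Hand1 and Krt19 together. It had 18 undetected genes, and the median over the 26 samples, groups of cells included, was also 18. Why it lacked these genes was not tested.

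Both Hippo genes outside the score had higher means in the ICM-leaning set of both embryos, beside 48.9% of all 137, with a median of 1.08. Yap1, the coactivator of TEAD4, differed by 1.33 ± 0.43 (SE, 2 embryos; limma, adjusted p = 0.455), and Nf2, an upstream activator of the pathway, by 0.83 ± 0.47 (adjusted p = 0.529 in the same limma fit). The study had counted Yap1 among the ICM-correlated genes.

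**Figure D4:**
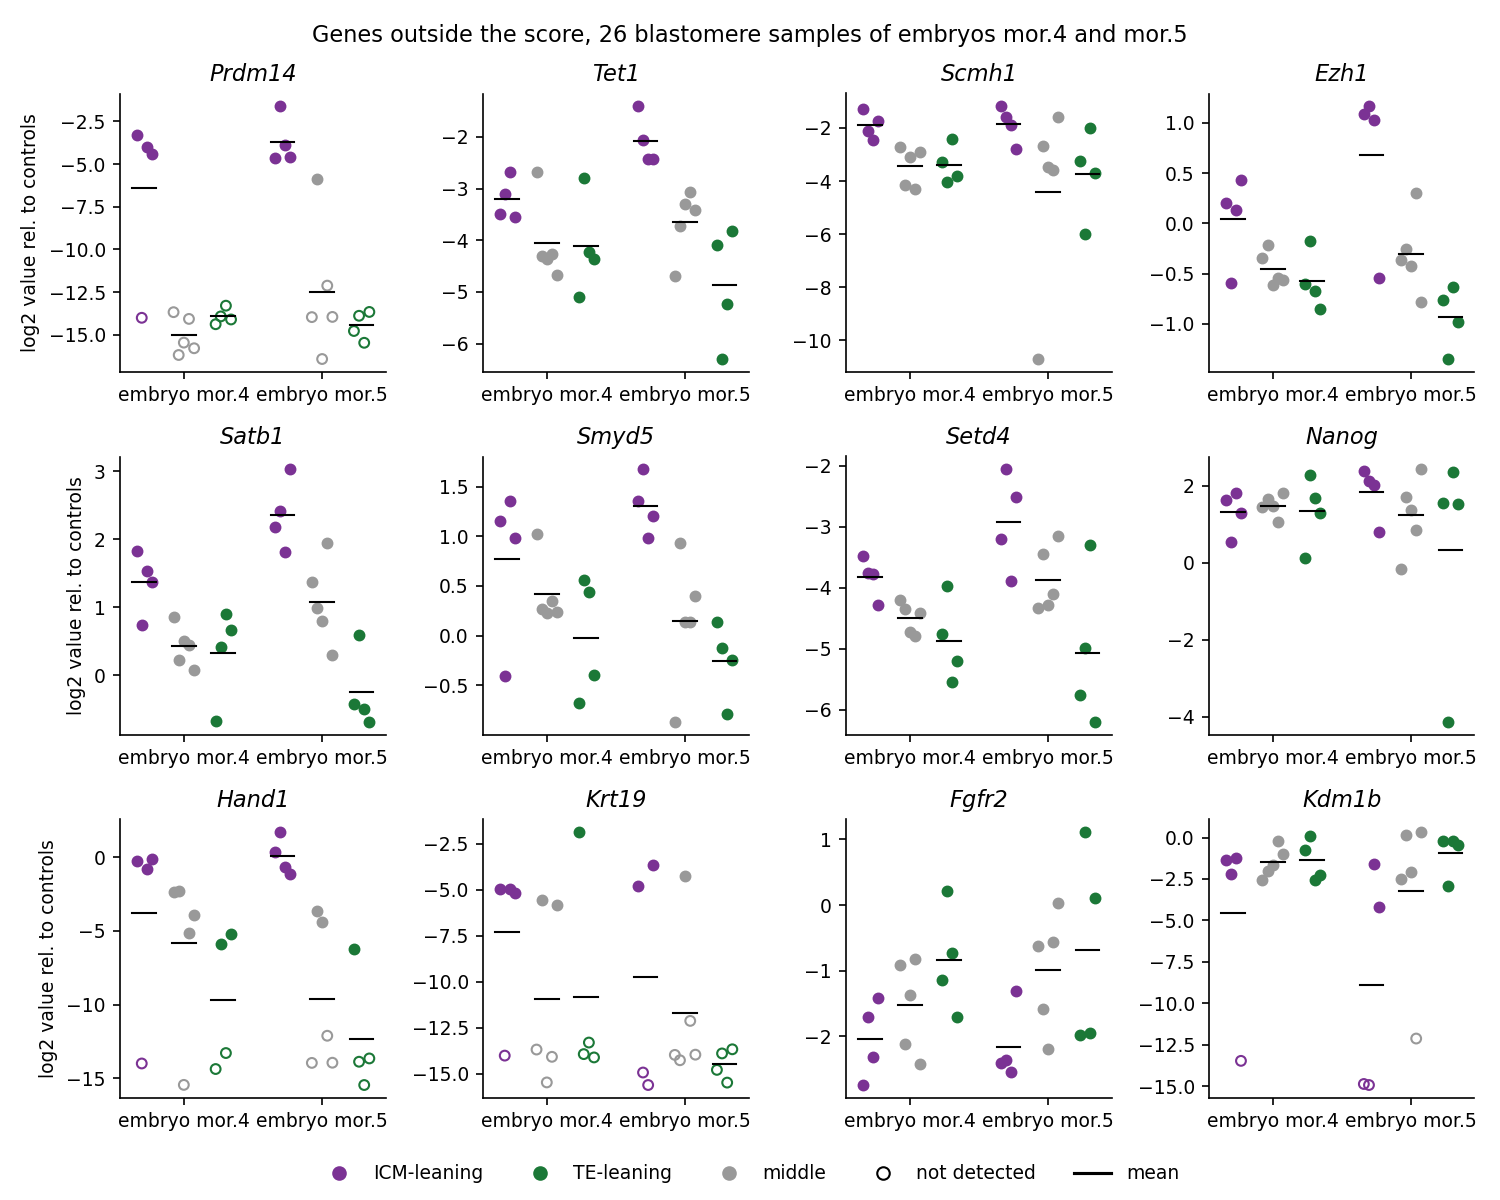
Values of 12 genes outside the score (log2 relative to the control genes) in the 26 blastomere samples, by embryo and set; open circles are samples in which the gene was not detected and lines are means. Prdm14 is detected in 7 of 8 ICM-leaning and in 0 of 8 TE-leaning samples, Nanog overlaps between the sets, and Hand1 and Krt19 are detected more often among ICM-leaning samples.

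Kdm1b, an H3K4 demethylase of oocytes, was the gene with the largest difference in the other direction. It was detected in 8 of 8 TE-leaning and in 5 of 8 ICM-leaning samples, lacking in blastomere 6 of embryo mor.4 and blastomeres 6 and 7 of embryo mor.5. The difference was −5.58 ± 1.42 (SE, 2 embryos; limma, adjusted p = 0.422), and 0.139 was the adjusted p of limma with samples as units. Dnmt3b, a de novo DNA methyltransferase and the other gene the study had counted as TE-correlated, differed by −0.38 and −0.34 with overlap in both embryos. It was detected in all 16 samples, between −0.82 and 2.84. Of the 14 other genes that the study had counted as ICM-correlated, 1, Smyd5, passed with samples as units, 6 had higher means in the ICM-leaning set of both embryos and 0 lower, beside 48.9% and 15.3% of all 137, with a median of 0.40, the same as over all 137 genes. Jmjd1c, a JmjC-domain protein, differed by 0.97 and 0.53, and Mll1, an H3K4 methyltransferase, by −1.01 and 3.97, with detection in 8 of 8 against 7 of 8 samples.

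In the other chromatin lists the calls, all with samples as units, stand beside 5.84% over the 137 genes. With embryos as units none of these genes passed. Of 7 PRC2 genes Ezh1 passed, with a list median of 0.07. Phf19, a PRC2 partner, was detected in 3 of 4 ICM-leaning and 0 of 4 TE-leaning samples of embryo mor.5, and in 2 of 4 of each set of embryo mor.4. Of 11 PRC1 and MBT-domain genes Scmh1 passed, with a median of 0.40, of 6 genes of DNA methylation and demethylation Tet1, with 0.60, of 5 SMYD genes Smyd5, with 0.86, and of 7 PRDM genes Prdm14, with 0.82. No gene passed among 9 H3K4, 5 H3K9, 6 H3K36 and 3 H4K20 methyltransferase genes, whose medians were 0.48, −0.33, 0.11 and −0.41. The same held for 3 HP1 genes (median 0.27), 6 H3K4 demethylase genes (0.07), 9 H3K9 demethylase genes (0.71), 4 H3K36 and H3K27 demethylase genes (0.17) and 5 JmjC-only genes (0.09). Nor did any of 8 genes of histone variants and chaperones (0.31), 6 of acetylation and deacetylation (0.18) and 3 of oocyte and germline (2.15) pass. Brdt, a bromodomain gene of the germline, differed by 1.40 and 5.20, with detection in 7 of 8 against 6 of 8 samples.

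The 10 middle samples, which entered no test, are given by their medians. The median of Satb1 was 0.66, of Tet1 −3.99, of Smyd5 0.25 and of Ezh1 −0.40. Hand1 was detected in 6 of 10, between −5.17 and −2.31, below every detected ICM-leaning value. The single cells among these were blastomeres 5 and 9 of embryo mor.4, and the others were groups of cells. Krt19 was detected in 3 of 10, all of them groups of cells, and Elf5 and Sox17 in 0 of 10. Of these samples 5 were groups of cells, whose values are averages.

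Whole embryos of the 16-cell stage (n = 3) gave scores of 0.64, 0.35 and −0.14, between the sets. They held Hand1 at −1.92, −2.33 and −2.69, Prdm14 at −4.72, −5.91 and −5.09, and Krt19 at −7.11, −5.15 and −5.88. Elf5 was not detected in 1 of them. In addition, 1 ICM sample and 1 TE sample of the 32-cell stage, labelled with different embryos, carry a lineage that was not taken from the measured values. Their scores were 0.46 and −3.74. The ICM sample also held TE genes, Cdx2 at 0.43 and Gata3 at 1.53, above every ICM-leaning value of the 16-cell embryos. In the TE sample these 2 genes read 1.84 and 2.73. How pure the 2 samples were was not tested. Tet1 was −2.0 in the ICM and −3.71 in the TE sample, Ezh1 −0.24 and −1.81, Scmh1 −0.85 and −3.46, and Prdm14 −3.52 and −5.64. Hand1 was −3.66 in the ICM sample and was not detected in the TE sample, and Krt19 was −4.95 and −7.90, whereas Elf5 was −7.90 and −6.23. Kdm1b, at −2.65 and −3.003, Dnmt3b, at 1.13 and 0.61, and Yap1, at −3.50 and −2.78, lay in the opposite order to the set means of the 16-cell embryos. With 1 sample each there is no test.

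At the 32-cell stage the same rule was applied to the 3 embryos with at least 8 retained blastomere samples. It took scores from 3.23 to 11.09 as ICM-leaning, but its TE-leaning sets reached up to 7.30 and 1.64 in embryos 8 and 9, where few samples scored below 0. No gene passed (0 of 137, 0%; limma with embryos as units), and 20 had an unadjusted p under 0.05. With sets by the sign of the score instead, chosen after these scores were seen, 4 embryos could be used and 12 of 137 genes passed (8.76%), 6 in each direction. The 4 chromatin genes of the core ICM set outside the score were among them, at 8.00 (Prdm14), 3.03 (Tet1), 2.57 (Ezh1) and 2.21 (Scmh1). Also among the 12 were Fgf4 at 5.99, Fgfr2 at −2.84, Dnmt3b at −1.93 and Elf5 at −5.32. The study had placed these 4 chromatin genes, and counted Dnmt3b as TE-correlated, from correlations that included the 32-cell samples. Their passing in sets made from the score is therefore not independent of that choice. In the sets by sign, Prdm14 was detected in 20 of 27 ICM-leaning and 1 of 10 TE-leaning samples, Fgf4 in 15 of 27 and 1 of 10, and Fgfr2 in 24 of 27 and 10 of 10. All 4 embryos included groups of cells, which made up most samples of embryos 9 and 13, so these counts are not counts of single cells. Satb1, at 0.44, and Smyd5, at 0.55, did not pass there (limma, adjusted p = 0.502 and 0.211).

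The difference between the stages was tested directly, with 2 embryos against 3. It passed for 0 of 137 genes (0%; limma, 9 at an unadjusted p under 0.05). Elf5 and Krt19 had the smallest adjusted p among the genes described here, 0.194 each. Elf5 differed between the sets by 2.64 and 1.91 in the 16-cell embryos, and by −4.14, −4.19 and −8.27 in the 32-cell embryos. Krt19 differed by 3.52 and 4.70, and by −2.70, −5.95 and −1.84. Both thus had opposite signs in all 5 embryos, as 8 of 137 genes did (5.84%). With the 32-cell sets by sign, the stage difference of Elf5, 7.60, was the only one that passed (limma, adjusted p = 0.0379). There Elf5 was detected in 9 of 10 TE-leaning and 11 of 27 ICM-leaning samples, and Krt19 in 7 of 10 and 9 of 27, with groups of cells among these samples. Hand1 differed by 4.13, 2.65 and −0.71 in the 32-cell embryos (stage difference 7.14 ± 2.49 (SE); limma, adjusted p = 0.587), and was detected in 12 of 27 ICM-leaning and 0 of 10 TE-leaning samples by sign.

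**Figure D5:**
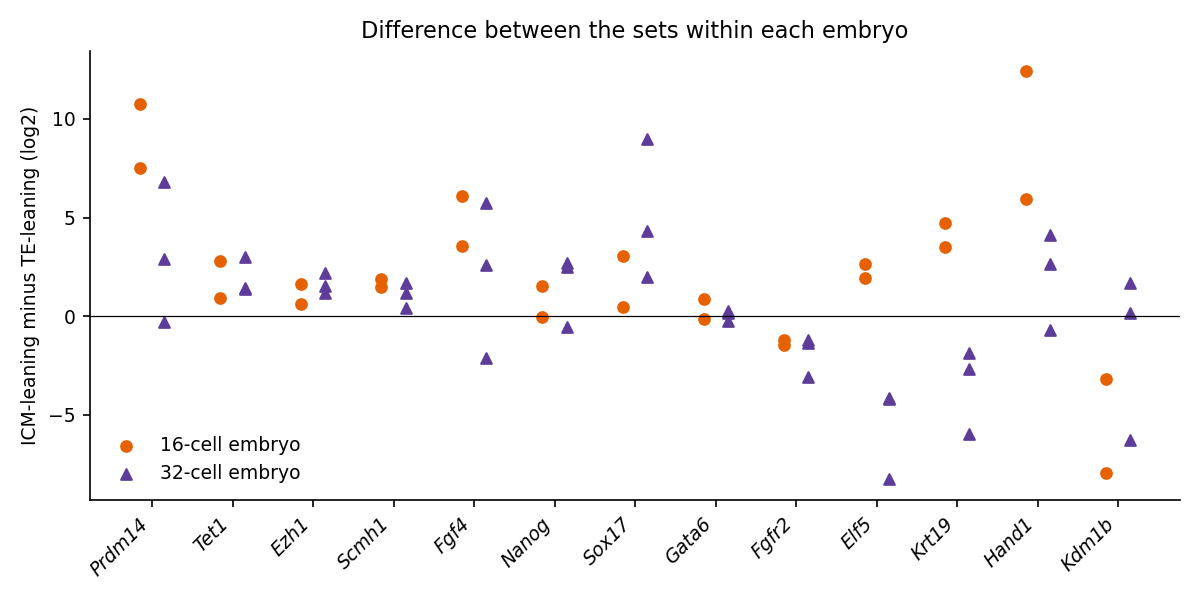
Difference between the means of the ICM-leaning and TE-leaning samples (log2) within each of 2 embryos of the 16-cell stage (circles) and 3 of the 32-cell stage (triangles) for 13 genes. Elf5 and Krt19 lie above 0 in both 16-cell embryos and below 0 in all 3 of the 32-cell stage, and Fgfr2 lies below 0 in all 5.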

How the data were processed

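The authors deposited Ct values (a score of PCR cycles) of 192 assays in 189 samples, and a normalized table in log2 units. The deposited log2 values equal 30 minus the Ct relative to Gapdh, Hspa8 and Lmnb1 (largest deviation 1.03e-08), which carry a failed mark. The study's methods name Hnrnpr, Ssu72 and Ube2e1, and values relative to these were computed from the Ct. A Ct of 30 or more was taken as undetected. The 36 failed assays were left out. The columns of all samples were mapped by their titles.

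Sets were the 4 highest and 4 lowest scores in each embryo. Means per set and embryo were fitted with limma (version 3.58.1 in R 4.3.3; lmFit, eBayes, embryo and set as terms), with Benjamini-Hochberg adjustment over 137 genes and calls at an adjusted p under 0.05. Differences are ICM-leaning minus TE-leaning, and the SE of a difference is the moderated one of eBayes. Exact permutation tests shuffled the sets within embryos (4900 arrangements). The 2 samples of the 32-cell stage that the study removed were left out. Each gene was measured once per sample, so the precision of a single value is not known. Cells of an embryo share their source, and the 2 embryos are the replicates.

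The members, gene lists and tests were chosen with earlier results of these data known. The genes always named were fixed in a list with those results in view, and others were named after their values were seen. Other computations used Python 3.11.15, numpy 2.4.6, pandas 2.3.3 and scipy 1.17.1. Alternatives were other set sizes, scores, control genes, floors, filters and units, and samples left out in turn.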

Additional observations from a re-analysis of the deposited data

Results flagged for a closer look

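Elf5 and Krt19 differed between the sets in opposite directions at the 2 stages, in every embryo. The difference at the 16-cell stage minus that at the 32-cell stage was 7.81 ± 1.49 for Elf5 and 7.61 ± 1.40 for Krt19 (SE, 2 against 3 embryos; limma, adjusted p = 0.194 each). At the 16-cell stage Elf5 was detected in 4 and Krt19 in 6 of the 16 samples, so these differences depend on the limit for undetected genes. In embryo mor.4 the only detected Elf5 value was −5.22, in ICM-leaning blastomere 4. The highest values of Elf5 and Krt19, −2.80 and −1.88, were in TE-leaning samples. At the 32-cell stage the TE-leaning sets of embryos 8 and 9 reached scores of 7.30 and 1.64.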

How the results depend on the processing

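The count of 0 genes with embryos as units also held with 3, 5 or 6 samples a set, single cells, the full sets of the study, a floor of −10, genes detected in at least 8 of 16 samples, each control gene left out, median scaling and the deposited table. It became 5 without normalization (Hand1, Prdm14, Fgf4 and Krt19 higher, Kdm1b lower), and 8 with a mean-variance trend (6 higher, 2 lower). With samples as units it was 8 over both embryos, 0 in embryo mor.4 alone and 4 in embryo mor.5 alone, and 0 by the exact permutation test over samples. In the fits of embryo averages, 1 residual degree of freedom is left, and without normalization, with the trend, or without blastomere 10 of embryo mor.5 the prior spread across genes was given infinite weight. Differences that moved by over 1.5 times in the same direction with 6 samples a set included Scmh1 (0.475), Kdm1b (−3.22), Krt19 (2.62), Fgf4 (2.37), Mll1 (0.231) and Jmjd1c (0.101), and Prdm14 was 5.45 with the floor. Leaving out 1 sample gave 0 to 12 calls: with embryos as units 9 without blastomere 10 of embryo mor.5 and 0 otherwise, and with samples as units 2 to 12. At the 32-cell stage leaving out an embryo gave 0 in each case, and sets by sign gave 12. The stage difference gave 0 with the floor, without normalization and with the deposited table, and 1 with sets by sign. Of the 25 genes followed, Tbx3 and Zfp42 turned sign under an alternative that used both embryos. Tbx3 was 0.0043 with 6 samples a set and 0.0879 without Hnrnpr. Zfp42 was −0.0875 with single cells, −0.0401 without normalization, −0.0885 without Ube2e1, −0.0201 with median scaling and −0.149 with the deposited table. The cause was not tested. The sets were paired within embryos by the embryo term in all fits that held both embryos. Beyond this, by replicate number, no paired analysis was possible because no such number ties a sample of one set to one of the other.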
